A study of Equus caballus with 14 samples.

Results

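Endometrium and embryos of mares were collected 13 days after ovulation and their messenger RNA was sequenced, to examine the transcripts with which the uterus responds to an embryo. The genes described here are 4 of the 26740 Ensembl gene identifiers in the deposited counts, ENSECAG00000021062, ENSECAG00000023463, ENSECAG00000021166 and ENSECAG00000011961, chosen because they were low in cyclic endometrium and much higher in pregnant endometrium of the same mares. Cyclic endometrium (n = 4) came from Warmblood mares left unbred, pregnant endometrium (n = 5) from mares inseminated with fresh semen of the same stallion, and the embryos (n = 5) were flushed from those pregnancies. All cycles, cyclic and pregnant, were given hCG to induce ovulation. Mares served as their own controls. Samples of the same number are taken here as the same mare, which the sample titles do not state. Pregnant sample 5 had no cyclic partner, because the RNA of that mare's cyclic cycle was of low quality. The methods describe a uterine flush before the biopsy in the pregnant cycle, to recover the embryo. If it was done in that cycle alone, the flush cannot be told apart from pregnancy in these samples. The same holds for insemination, which only the pregnant cycles received. Embryo libraries were made from embryonic tissue without its capsule and yolk sac fluid.

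The equine conceptus is mobile in the uterine lumen for days before it becomes fixed in place. During this time the uterus has to withhold the prostaglandin F2α that would otherwise end the life of the corpus luteum, and the endometrial glands secrete histotroph, the mixture of proteins and nutrients on which the free embryo depends. The count files do not pair the identifiers with gene symbols, and 0 of them were found in the RefSeq gene table used here. Symbols that the study's supplement gives for some identifiers were not used. No function or sequence is therefore given for the 4 genes, and the labels of tissue were not checked against marker genes.

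Total counts ranged from 21.8 to 46.9 M (1 M is 1000000 counts) in endometrium and from 23.5 to 240 M in embryos. Levels are given as counts and as CPM (counts per 1000000 counts) scaled over all 14 samples with TMM factors, which correct for differences in library composition. A floor of 3 counts corresponded to between 0.0374 and 0.0964 CPM in endometrium and to between 0.0138 and 1.97 CPM in embryos. Embryo 1 stood apart, with 91.7% of its counts in its 10 most counted genes and a TMM factor of 0.0342, so that its floor was the highest and its level of any gene the least precise. Values were compared between samples for each gene and not between genes, since gene lengths were not used.

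The 4 genes were higher in all 5 pregnant samples than in any of the 4 cyclic samples. The lowest pregnant level exceeded the highest cyclic level 95.7-fold for ENSECAG00000021062, 19.6-fold for ENSECAG00000021166, 16.6-fold for ENSECAG00000011961 and 9.52-fold for ENSECAG00000023463. No floor was applied here. The highest cyclic level of ENSECAG00000021062 rested on 3 counts, so its ratio is imprecise. Pregnant levels all above the cyclic levels were found for 2.61% of the 11892 genes tested between these groups. Of the tested genes, 1.14% were called higher in pregnancy by the likelihood ratio test of edgeR (adjusted p under 0.05, change over 2-fold), all 4 genes included. The quasi-likelihood test of edgeR called 1 gene in all, ENSECAG00000021062, so the other 3 lost their call. The 4 genes were selected on this contrast, so these counts describe the selection and were not tested. In biopsies, more RNA per cell and more cells of a type that makes the transcript cannot be told apart.

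ENSECAG00000021062 was close to undetected in the cyclic uterus, with 2, 1, 3 and 0 counts in cyclic samples 1 to 4. In pregnant samples 1 to 5 it had 573, 1792, 2333, 262 and 1067 counts, or 9.26, 27.7, 31.3, 4.31 and 17.6 CPM. No cyclic library rose above 3 counts and no pregnant library fell under 262. The pregnant level was 18.1 ± 11.6 CPM (SD, n = 5), and the summed counts per scaled library were 753 times those of cyclic endometrium (95% exact interval 346 to 2050, counting error only).

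ENSECAG00000023463 had 0, 2, 16 and 0 counts in cyclic samples 1 to 4, so that 16 of the 18 cyclic counts came from mare 3. The pregnant samples had 567, 783, 1769, 139 and 704 counts, or 9.16, 12.1, 23.8, 2.29 and 11.6 CPM. The highest level in both groups was that of mare 3. The mean rose from 0.0761 ± 0.113 CPM (SD, n = 4) in cyclic to 11.8 ± 7.76 CPM (SD, n = 5) in pregnant endometrium, and the summed counts per scaled library differed 165-fold (95% exact interval 104 to 279, counting error only).

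ENSECAG00000021166 was present at trace level in the cyclic uterus, with 12, 5, 1 and 17 counts. In the pregnant samples it had 257, 1324, 820, 505 and 492 counts, or 4.15, 20.5, 11, 8.31 and 8.12 CPM. Mare 3, with the lowest cyclic count, had the next to highest pregnant level, and mare 4, with the highest cyclic count, was in the middle of the pregnant samples. The group means were 0.144 ± 0.0885 CPM (SD, n = 4) and 10.4 ± 6.14 CPM (SD, n = 5), a ratio of 72.3.

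ENSECAG00000011961 was expressed in the cyclic uterus and was therefore raised rather than switched on in pregnancy. Cyclic samples 1 to 4 had 233, 59, 66 and 891 counts, or 3.65, 1.90, 0.991 and 11.1 CPM. Pregnant samples 1 to 5 had 11447, 33293, 25330, 16644 and 27348 counts, or 185, 515, 340, 274 and 451 CPM. Levels spanned 11.2-fold among the cyclic samples and 2.79-fold among the pregnant samples. The means were 4.42 ± 4.61 CPM (SD, n = 4) and 353 ± 133 CPM (SD, n = 5), a ratio of 80.0. In pregnancy the gene took from 0.0289% of the counts of a library (95% Wilson interval 0.0284 to 0.0295) to 0.0800% (0.0792 to 0.0809).

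**Figure D1:**
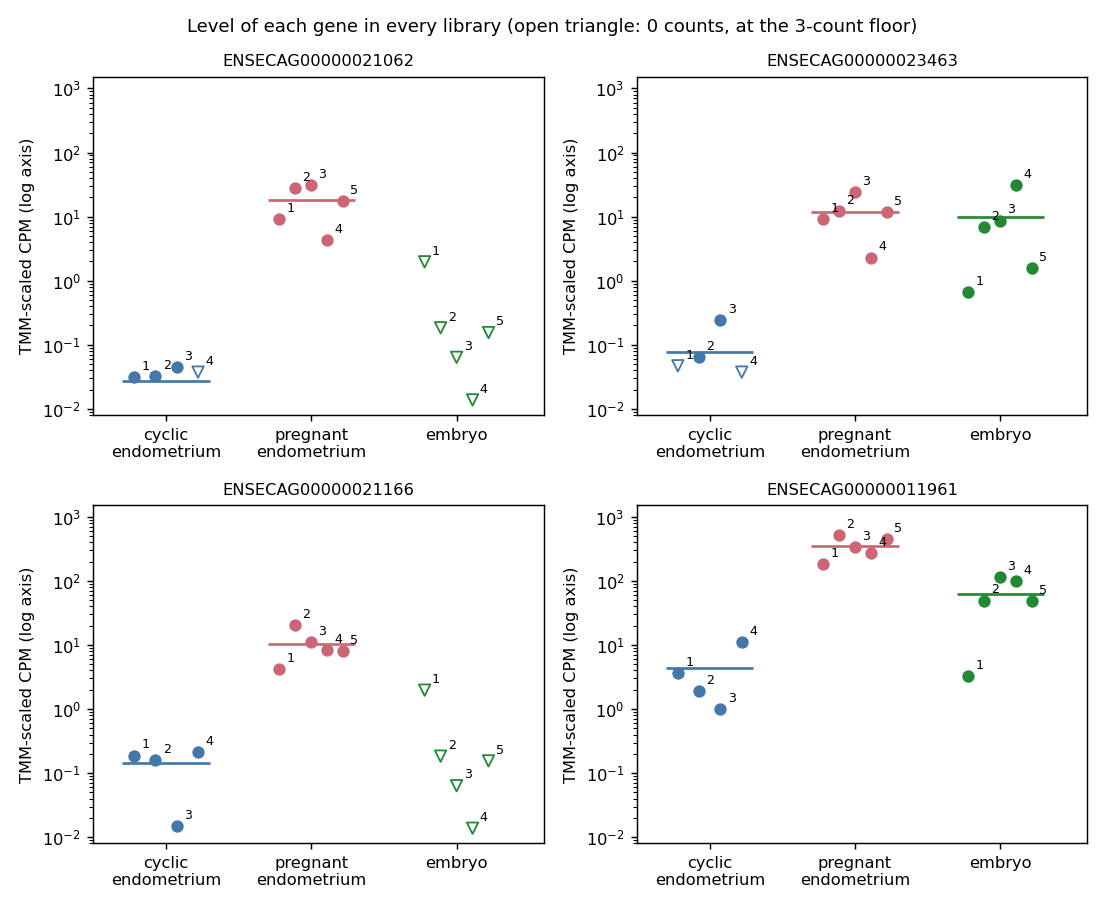
Level of each gene in TMM-scaled CPM on a log axis, in cyclic endometrium (n = 4), pregnant endometrium (n = 5) and embryos (n = 5), with the replicate number beside each point, 0 counts drawn as open triangles at the floor of 3 counts and the group mean (0 counts taken as 0) as a line. The 5 pregnant samples lie above all cyclic samples in the 4 panels, while the embryos have 0 counts of ENSECAG00000021062 and ENSECAG00000021166 and measurable levels of the other genes.

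The selection asked for a rise of over 50-fold in every same-numbered pair, and the data met this for 2 of the 4 genes. With a cyclic count under 3 taken as 3, ENSECAG00000021062 was 197-, 288-, 696- and 115-fold higher in mares 1 to 4, and ENSECAG00000023463 was 195-, 126-, 99- and 61.1-fold higher. ENSECAG00000011961 was 50.6-, 272-, 344- and 24.6-fold higher, and ENSECAG00000021166 was 22.1-, 128-, 245- and 39.1-fold higher. These 2 genes thus missed the threshold in mare 4, and ENSECAG00000021166 also in mare 1. No other identifier among the 26740 exceeded 50-fold in every pair. Just outside lay ENSECAG00000009450, which is not among the 4 genes although its smallest fold of 25.7 (mare 2) was above the smallest folds of ENSECAG00000011961 and ENSECAG00000021166. The next gene after these had a smallest fold of 10.9. The largest folds of ENSECAG00000011961 and ENSECAG00000021166 fell in mares 2 and 3, the fold of mare 3 for the latter resting on the floor. All folds of ENSECAG00000021062 rested on the floor, so the order of mares is not settled for this gene.

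**Figure D2:**
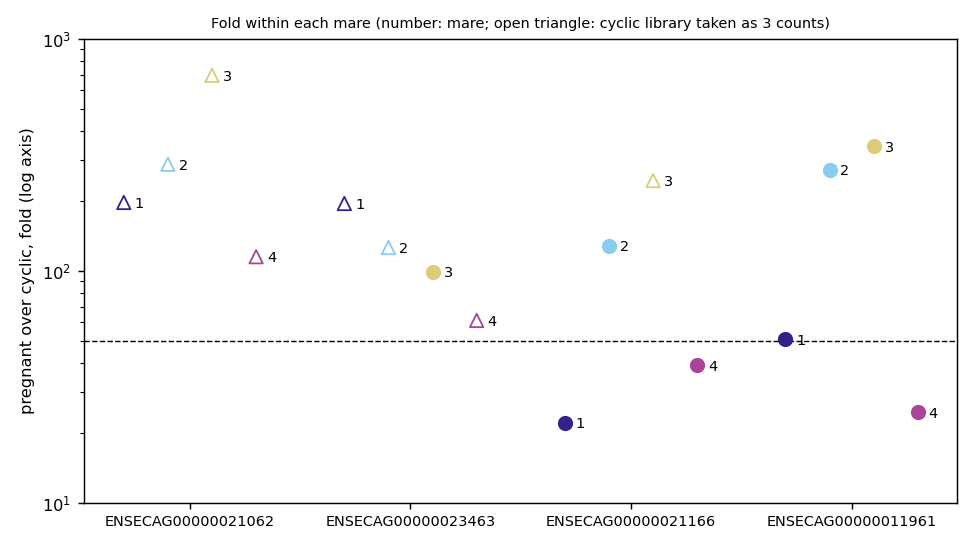
Ratio of pregnant to cyclic TMM-scaled CPM (log axis) in each of mares 1 to 4 for the 4 genes, with open triangles where the cyclic count was 3 or fewer and was taken as 3, and a dashed line at 50-fold. All 4 mares lie above the line for ENSECAG00000021062 and ENSECAG00000023463, while the lowest points are 22.1-fold for ENSECAG00000021166 and 24.6-fold for ENSECAG00000011961.

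Pregnant sample 5 had no cyclic partner and did not enter the pairs. Its level of ENSECAG00000021062 was 17.6 CPM, 183-fold over the highest cyclic level when counts under 3 were taken as 3. On the same scale, ENSECAG00000023463 was 48.4-fold, ENSECAG00000011961 40.6-fold and ENSECAG00000021166 38.3-fold over the highest cyclic sample. The 4 genes ranked 1, 2, 4 and 5 of all 26740 identifiers by this measure, and 8 of the 11892 tested genes (0.0673%), these 4 included, were more than 10-fold over the highest cyclic sample. A comparison of 1 sample with 4 cannot give an exact one-sided permutation p under 0.2, and the cyclic samples had been part of the selection.

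Over the 5 pregnant samples the genes varied more than most. The SD of log2 CPM was 1.19 for ENSECAG00000021062, 1.24 for ENSECAG00000023463, 0.83 for ENSECAG00000021166 and 0.59 for ENSECAG00000011961, against a median of 0.24 over the tested genes. Between 91% and 99% of the tested genes had a lower SD. Counting error was small beside this spread. The smallest pregnant count was 139 (ENSECAG00000023463, sample 4), with a level of 2.29 CPM and an exact Poisson interval of 1.92 to 2.70.

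Within this spread a first pair of genes varied alike. The remaining pair ordered 8 of 10 pairs of samples alike, little more than the 7 of 10 found across the pairs. ENSECAG00000021062 and ENSECAG00000023463 ordered the pregnant samples in the same way, from sample 3 through 2, 5 and 1 to sample 4, so that all 10 of the 10 possible pairs of samples were ordered alike. Of the 11888 other tested genes, 105 (0.883%) shared this order. The order of samples 2 and 5 was within counting error for ENSECAG00000023463, with intervals of 11.3 to 13.0 and 10.8 to 12.5 CPM. Sample 4 was low in both genes, at -1.74 and -2.03 on the log2 scale relative to the mean of the 5 samples.

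ENSECAG00000021166 and ENSECAG00000011961 were both highest in pregnant sample 2 and lowest in pregnant sample 1, and ordered 8 of 10 pairs of samples alike, as did 14.6% of the tested genes with the former and 9.36% with the latter at least. Samples 4 and 5 did not differ beyond counting error for ENSECAG00000021166 (intervals of 7.60 to 9.06 and 7.42 to 8.87 CPM). Across the pairs, that is, between either of these genes and either of the first pair, 7 of 10 pairs of samples were ordered alike, which 22.1% to 27.9% of the tested genes reached or exceeded. Pregnant sample 4, the lowest in the first pair, was -0.14 and -0.28 on the log2 scale from the mean for ENSECAG00000021166 and ENSECAG00000011961. With 5 samples no correlation or test was computed. The total counts of the pregnant libraries moved with the first pair, ordering 9 of 10 pairs of samples like ENSECAG00000021062 and like ENSECAG00000023463, which 5.96% of the tested genes reached or exceeded, and their part in the order was not tested.

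**Figure D3:**
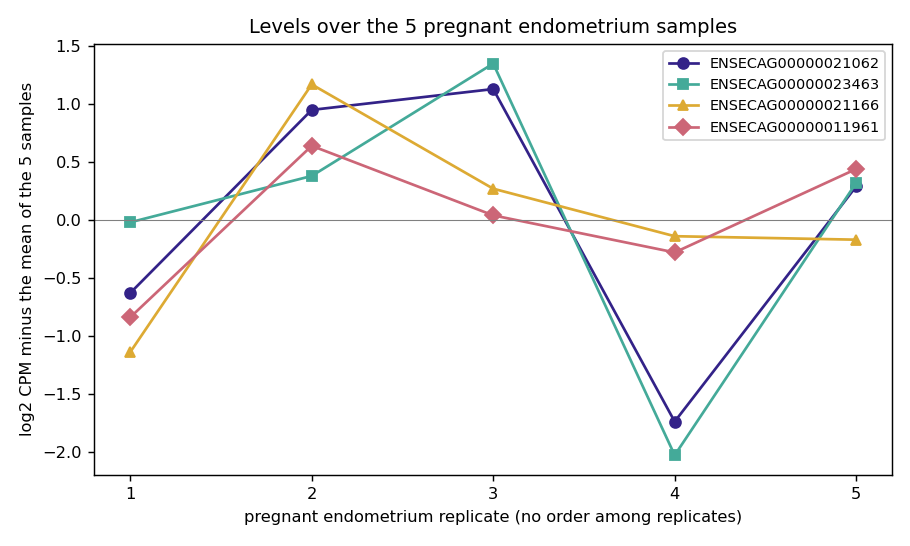
Log2 CPM of the 4 genes in pregnant endometrium samples 1 to 5, each gene centred on its mean over the 5 samples; lines join the points of a gene and carry no order. ENSECAG00000021062 and ENSECAG00000023463 share the lowest point in sample 4 (-1.74 and -2.03) and the highest in sample 3, while ENSECAG00000021166 and ENSECAG00000011961 are lowest in sample 1 and highest in sample 2.

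In the cyclic samples, ENSECAG00000021166 and ENSECAG00000011961 were both highest in mare 4, followed by mares 1, 2 and 3, an order that 5.47% of the tested genes had. For ENSECAG00000021166, mares 1, 2 and 4 did not differ beyond counting error, and mare 3 had 1 count. The cyclic counts of ENSECAG00000021062, between 0 and 3, were within counting error of each other and gave no order. Low cyclic levels were part of the selection.

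The genes with the most similar profile over the 9 endometrium samples were sought by the root mean square difference of log2 CPM, each gene centred on its mean. ENSECAG00000021062 and ENSECAG00000023463 differed by 0.887, and ENSECAG00000021166 and ENSECAG00000011961 by 0.736. Between the pairs of genes the difference was 1.45 to 1.84. Among other genes, ENSECAG00000020082 was among the 3 nearest of all 4 genes (1.30 to 2.08) and ENSECAG00000009450 among those of 3 of them (1.16 to 1.62). These values used a prior count of 2, added before the log. With a prior count of 5 the differences within the pairs of genes were 0.711 and 0.892, so which pair was closer depended on this choice. ENSECAG00000009450 was then 0.905 from ENSECAG00000021166. ENSECAG00000009450 had 1, 14, 0 and 0 counts in cyclic samples and 203, 748, 289, 153 and 191 counts in pregnant samples. ENSECAG00000020082 had 106, 139, 419 and 970 counts in cyclic and 2442, 16742, 10176, 3949 and 7755 counts in pregnant samples. Both were highest in pregnant sample 2. This measure depends largely on the size of the rise, for which the 4 genes had been selected, so their nearness to each other is a description of the selection too.

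The embryos divided the genes in another way. No count of ENSECAG00000021062 or of ENSECAG00000021166 was found in any of the 5 embryos, although 385 M counts were sequenced from them. With the limit for a count of 0 set at 3 counts, levels of up to 0.0138 CPM in embryo 4, the deepest library, and of up to 1.97 CPM in embryo 1 cannot be told from 0. Against the mean embryo floor of 0.478 CPM, pregnant endometrium was at least 37.8-fold higher for ENSECAG00000021062 and at least 21.8-fold higher for ENSECAG00000021166. Without embryo 1 the floor was 0.104 CPM and the bounds were 173-fold and 99.9-fold. A difference between embryos and cyclic endometrium was not tested. The mean cyclic level of ENSECAG00000021062, 0.0271 CPM, was under the mean cyclic floor of 0.0565 CPM. It was also under the floors of embryos 1, 2, 3 and 5, though above that of embryo 4. The mean cyclic level of ENSECAG00000021166, 0.144 CPM, was above the floors of embryos 3 and 4 and under those of embryos 1, 2 and 5.

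ENSECAG00000023463 was found in embryos at levels that overlapped those of pregnant endometrium. Embryos 1 to 5 had 1, 112, 408, 6781 and 30 counts, or 0.657, 6.89, 8.65, 31.2 and 1.55 CPM. On this scale embryo 4 exceeded all pregnant samples, embryos 2 and 3 lay within their range, and embryos 1 and 5 were below it. Without scaling factors embryo 4, at 28.3 CPM, was below pregnant sample 3, at 38.2 CPM. All 5 embryos were above the highest cyclic sample in scaled CPM. The single count of embryo 1, however, has an interval of 0.0166 to 3.66 CPM that includes the cyclic levels. Without scaling factors embryo 1 (0.0224 CPM) was below cyclic sample 3 (0.371 CPM). The embryo mean was 9.79 ± 12.5 CPM (SD, n = 5), and 12.1 CPM without embryo 1 on the same scale. With levels scaled anew without embryo 4, the means were 4.63 CPM in embryos and 11.7 CPM in pregnant endometrium. Scaled anew without embryo 1, they were 15.8 and 15.3 CPM.

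ENSECAG00000011961 was lower in embryos than in pregnant endometrium and well above the floor in embryos 2 to 5. The level of embryo 1, with 5 counts, had an interval of 1.07 to 7.67 CPM that included its floor of 1.97 CPM. Embryos 1 to 5 had 5, 799, 5417, 21679 and 925 counts, or 3.29, 49.1, 115, 99.8 and 47.8 CPM. Embryos 2 to 5 lay between the cyclic and the pregnant samples with no overlap with either, and embryo 1 lay within the cyclic range. Without scaling factors embryo 1, at 0.112 CPM, was below the lowest cyclic level, 1.53 CPM in cyclic sample 3. The embryo mean was 63.0 ± 44.8 CPM (SD, n = 5), and pregnant endometrium was 5.61-fold higher, or 4.53-fold without embryo 1.

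In the comparison of embryos with pregnant endometrium, 3 of the 4 genes were called lower in embryos, against 28.6% of the 11244 tested genes (edgeR likelihood ratio test, adjusted p over all tested genes). Of these 3, ENSECAG00000021062 and ENSECAG00000021166 passed the filter through 4 pregnant samples each and no embryo, so they had to differ, and their calls support nothing. All pregnant samples exceeded all embryos for these 3 genes, as for 30.1% of the tested genes. The log2 change of ENSECAG00000011961 was -2.49 (SE 0.57, adjusted p = 9.55e-05, edgeR likelihood ratio test), and embryos were lower in 5 of 5 same-numbered pairs. ENSECAG00000023463 did not pass the test (log2 change -0.26, SE 0.79, 95% interval -1.80 to 1.29, adjusted p = 0.801 by edgeR), and the interval admits differences of more than 2-fold in either direction. The embryos played no part in the selection, but the pregnant samples had been selected for high levels, which favours a lower level in embryos.

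Each embryo was then set beside the endometrium of the same number. Embryo 4 had the highest level of ENSECAG00000023463 among embryos, 3.77 higher on the log2 scale than pregnant sample 4, the lowest endometrium. Embryo 1 had a single count against 567 in its endometrium, and in pairs 2, 3 and 5 the embryo was lower, with log2 differences of -0.82, -1.46 and -2.90. For ENSECAG00000011961 the log2 difference of embryo minus endometrium was -5.81, -3.39, -1.57, -1.46 and -3.24 in pairs 1 to 5. Embryos 3 and 4, with the highest levels of both genes, lay closest to their endometrium in ENSECAG00000011961.

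**Figure D4:**
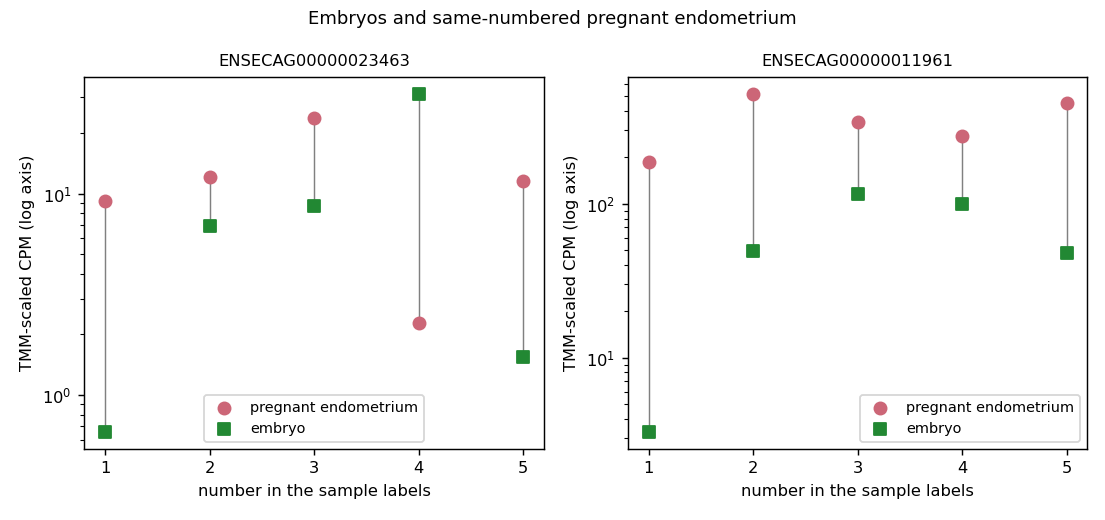
TMM-scaled CPM (log axis) of ENSECAG00000023463 and ENSECAG00000011961 in pregnant endometrium and in the embryo of the same number, joined by a line. Embryo 4 lies above its endometrium for ENSECAG00000023463 (31.2 against 2.29 CPM), and the embryo lies below its endometrium in all 5 pairs for ENSECAG00000011961.

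ENSECAG00000021062 and ENSECAG00000021166 did not keep the same proportion to ENSECAG00000011961 in the embryos as in pregnant endometrium. For every 1000 counts of ENSECAG00000011961, pregnant samples had between 15.7 and 92.1 counts of ENSECAG00000021062 and between 18.0 and 39.8 counts of ENSECAG00000021166. In the embryos, 28825 counts of ENSECAG00000011961 came with 0 counts of either gene. At the lowest ratio seen in pregnant endometrium, the 21679 counts of ENSECAG00000011961 in embryo 4 would correspond to 341 counts of ENSECAG00000021062 and 390 counts of ENSECAG00000021166. The ratio of ENSECAG00000023463 was between 8.35 and 69.8 counts per 1000 in pregnant endometrium and 140, 75.3, 313 and 32.4 in embryos 2 to 5. Embryo 5 thus lay within the pregnant range. Cyclic endometrium, with few counts, also left the pregnant ranges in part. In cyclic samples 1 to 4 the ratio was 0, 33.9, 242 and 0 for ENSECAG00000023463. It was 8.58, 16.9, 45.5 and 0 for ENSECAG00000021062, and 51.5, 84.7, 15.2 and 19.1 for ENSECAG00000021166. Embryo 1, with 5 counts of ENSECAG00000011961, gives no usable ratio.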

How the data were processed

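The files that the authors deposited hold raw counts, not normalised or filtered. According to the methods, small and larger RNAs of a tissue sample were extracted separately, and messenger RNA libraries were made with a directional kit. Single-end reads were trimmed with cutadapt 1.11 and mapped to the EquCab reference of Ensembl with CLC Genomics Workbench. Reads on Ensembl genes were then counted. Neither strand use in the counting nor the handling of multi-mapping reads is stated, so counts of overlapping or near-identical genes are uncertain. Each file held whole-number counts of 26740 identifiers.

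Groups and replicate numbers came from the sample titles. The replicate number was taken as the number of the mare, which the titles do not state. Of 91 pairs of libraries none agreed within sampling noise (smallest chi-square 60.6 per degree of freedom). Fits were made in R 4.3.3 with edgeR 4.0.16 as the study describes: genes over 4 CPM in at least 4 fitted samples, TMM factors, a generalised linear model and the likelihood ratio test, called at an adjusted p (Benjamini-Hochberg) under 0.05 and over 2-fold. The mare was a block for pregnant against cyclic endometrium, since each mare was its own control, and the deviations of same-numbered samples had correlations of 0.12, 0.08, 0.57 and 0.57. Embryos were compared without a block. Displayed levels were scaled by TMM factors over 14 samples (11948 genes), and log2 values for likeness and for SDs used a prior count of 2. Intervals (95%) and the floor of 3 counts cover counting error only, as reads carried no molecular identifiers. Alternatives were the quasi-likelihood test of edgeR, DESeq2 1.42.0, other scalings, no filter, the opposite block and omission of each replicate. The tests were run on simulated data first.

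The genes and lists were chosen with earlier results of these data known. Genes named beside the 4 were those just below the 50-fold threshold and the 3 most alike per gene. As neither the count files nor the gene table gave symbols, only 2 of them are given by identifier, chosen after their values were seen. The 14 lists of markers and pathways could not be read for the same reason.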

Additional observations from a re-analysis of the deposited data

Results flagged for a closer look

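The level of ENSECAG00000023463 in embryo 4 was far from that of the other embryos, at 31.2 CPM (6781 counts) against 8.65 CPM in the next embryo, a gap of 0.739 of the range of the group. Embryo 4 was also the deepest library, with 240 M (1 M is 1000000) counts against 50.8 M in the next embryo, and the part of depth in this value was not tested. Of 10 groups of values examined for the 4 genes, 1 held such a sample, where chance gives 0.5. The rule was applied to CPM and not to log2 levels, and its chance rate assumes normally distributed values, which was not tested.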

How the results depend on the processing

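The number of genes with a fold over 50 in every pair was 2 of the 4 under library size and under DESeq2's size factors, and from 2 to 3 on omission of a replicate. For embryos against pregnant endometrium, 3 of the 4 genes were called lower under the 6 other tests, scalings, filter and block, and from 1 to 3 on omission of a replicate. The count was 1 without pregnant sample 2, 3 or 5, and 2 without pregnant sample 1 or 4, because ENSECAG00000021062 or ENSECAG00000021166 then had fewer than 4 samples over 4 CPM and was not tested. These genes had no count in any embryo, so their calls under the alternatives support nothing either. The change of ENSECAG00000011961 was between -3.42 and -2.22 over 16 alternatives, with an adjusted p between 8.49e-09 and 0.00274. Each alternative used pregnant samples selected for high levels, which favours a lower level in embryos, so this range adds no independent support. ENSECAG00000023463 was not called under any of the 16 (log2 change from -1.27 to 0.13, adjusted p from 0.127 to 0.994). Its sign turned without pregnant sample 3 (0.13) and without embryo 5 (0.11), and it was -1.27 without embryo 4. With the replicate number as a block it was -1.21 (adjusted p = 0.315), and 5769 genes were called in all against 6272. The block changed no call of the 4 genes, and the deviations of same-numbered embryos and endometrium from their group means had correlations from -0.02 to 0.15. Without a filter 9587 genes were called. For pregnant against cyclic endometrium, 213 genes were called, 179 without the replicate block, 1 with the quasi-likelihood test (ENSECAG00000021062, so 3 of the 4 genes lost their call) and from 133 to 455 on omission of a replicate (455 without mare 1, 133 without mare 3). The cause was not tested. Depth limits the cyclic and embryo values under 3 counts. Library size without scaling factors raised the mean pregnant level of all 4 genes, to 28.8, 18.8, 16.6 and 566 CPM for ENSECAG00000021062, ENSECAG00000023463, ENSECAG00000021166 and ENSECAG00000011961.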
